A study of Homo sapiens with 8 samples.

Results

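The 41 genes described here encode proteins of homologous recombination, the Fanconi anaemia pathway and the DNA damage checkpoint, together with the end-joining polymerase POLQ. They were taken from the table by gene symbol. All 41 were found among the 26830 gene symbols of the deposited table, and all 41 were among the 14302 genes that reached 1 TPM, the length-scaled share of a library that each gene's transcripts take, in 2 or more libraries. Polyadenylated RNA was sequenced from NOMO-1 and MOLM-13, human acute myeloid leukaemia cell lines that carry an MLL (KMT2A) fusion gene. There were 4 groups of 2 libraries (n = 2 throughout): NOMO-1 shALKBH5, NOMO-1 shNS, MOLM-13 shALKBH5 and MOLM-13 shNS. All cells, controls included, had been transduced with lentivirus and selected with puromycin. The shALKBH5 cells carried a single hairpin (#1) against ALKBH5, an enzyme that removes the m6A mark from RNA, and the shNS cells a control hairpin. The texts of the labels differ on the selection, given as 4 days in one place and as 1 week in another, and the protocols also mention an FTO-directed virus and drugs, which are absent from the sample labels. Whether the 2 libraries of any group were grown as separate cultures is not stated. The p-values therefore cover the spread of these libraries alone, and that spread may be technical.

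Homologous recombination repairs a broken DNA double strand by copying the sister chromatid: the ends are trimmed to single strands, BRCA proteins prepare the trimmed ends, and further proteins carry out the search and exchange of strands. The Fanconi pathway deals with DNA crosslinks, through a core complex that attaches ubiquitin to the paired proteins FANCD2 and FANCI, after which nucleases unhook the crosslink. The checkpoint kinases ATM and ATR, with their effectors CHEK2 and CHEK1, sense the damage and stop the cell cycle. Many of these genes are most active in dividing cells, in which DNA is being copied.

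ALKBH5 itself had 15.1 and 14.2 TPM in NOMO-1 shALKBH5, against 70.4 and 71.8 TPM in NOMO-1 shNS, and 9.45 and 7.35 TPM in MOLM-13 shALKBH5, against 45.7 and 45.8 TPM in MOLM-13 shNS. The depth of the libraries is unknown. The libraries of a group differed most in MOLM-13 shALKBH5: the SD of their log2 difference over 8804 genes was 0.53, against 0.133 to 0.184 in the other groups. Replicate 3 of that group was lower than replicate 1 in 34 of the 41 repair genes (median log2 difference -0.33, over all genes tested -0.29), and the 12 interferon-stimulated genes found summed to 1290 TPM in replicate 1 and 90 TPM in replicate 3. In NOMO-1 shALKBH5, replicate 3 was higher than replicate 2 in 38 of the 41 repair genes (median log2 difference 0.19, over all genes tested 0.04). The defining blood genes PTPRC, CD33 and SPI1 were at 64.5 TPM or more in every library, whereas MS4A1, EPCAM, KRT19 and HBA1 were at 0 in every library. Of the 8 myeloid and blood markers listed, 1 was lower (12.5%) and 2 higher (25%) in NOMO-1, where 15% and 28.6% of all genes were. In MOLM-13, 3 were lower (37.5%) and 2 higher (25%), where 31.2% and 10.6% of all genes were. All but the share higher in MOLM-13 were thus near those of all genes. LYZ, the lysozyme of myeloid cells, had 1530 and 1510 TPM in NOMO-1 shALKBH5, against 463 and 500 TPM in NOMO-1 shNS, and 19300 and 12100 TPM in MOLM-13 shALKBH5, against 9130 and 8490 TPM in MOLM-13 shNS. MPO, the peroxidase of neutrophil granules, had 19.3 and 16.4 TPM in MOLM-13 shALKBH5, against 384 and 456 TPM in MOLM-13 shNS, and 0.07 to 0.48 TPM in the NOMO-1 libraries, in which CD14 was at 0.15 to 0.44 TPM. The part of these marker changes in the results on the repair genes was not tested. HBB was at 14 TPM in MOLM-13 shALKBH5 replicate 3 and at 0 elsewhere.

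The first comparison asked what happened to the repair genes when ALKBH5 was lowered in NOMO-1. Of the 41 genes, 27 were lower, 2 were higher (MUS81 and ATM) and 12 did not pass (limma on log2(TPM + 1), Benjamini-Hochberg adjusted p under 0.05 over all genes tested). Over all genes tested, 15% were lower and 28.6% higher. The median log2 fold change was -0.93 for the repair genes and 0.16 for all genes. Both shALKBH5 libraries lay below both shNS libraries for 34 of the 41 genes, as they did for 30.5% of all genes. By group mean, 19 repair genes were more than 2 times lower and 3 more than 4 times lower: RAD51AP1, FANCD2 and POLQ. The 41 genes summed to 797 and 934 TPM in NOMO-1 shALKBH5, against 1670 and 1710 TPM in NOMO-1 shNS, which is 1.95 times lower.

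In MOLM-13, 34 of the 41 genes were lower, 1 was higher (MUS81) and 6 did not pass, where 31.2% of all genes were lower and 10.6% higher. The median log2 fold change was -1.32 for the repair genes and -0.18 for all genes. Both shALKBH5 libraries lay below both shNS libraries for 39 genes, as for 46.2% of all genes, and RAD52 was the gene whose groups overlapped. More than 2-fold falls numbered 28 and more than 4-fold falls 16. The summed level was 414 and 306 TPM in MOLM-13 shALKBH5, against 883 and 874 TPM in MOLM-13 shNS, 2.44 times lower. In total, 25 of the 41 genes were lower in both lines, against 10.4% of all genes. The calls depended on the fit. With each line fitted alone, 34 repair genes were lower in NOMO-1 and 27 in MOLM-13 (3401 and 2061 of all genes). The 34 were all those with a log2 fold change below 0 in NOMO-1, among them BRCA2, RAD51D, MRE11A, FANCC, FANCM, ATR and ATRIP. Since each RNA sample is drawn from a whole culture, fewer cells that express a gene and less RNA per cell cannot be told apart.

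Proliferation markers moved with the repair genes. Of 12 such genes, 11 were lower in NOMO-1 and 12 in MOLM-13. Their sum was 1170 and 1510 TPM in NOMO-1 shALKBH5, against 4000 and 4060 TPM in NOMO-1 shNS (3.01 times lower), and 213 and 153 TPM in MOLM-13 shALKBH5, against 1210 and 1230 TPM in MOLM-13 shNS (6.67 times lower). MKI67, a marker of cycling cells, had 51.5 and 74.1 TPM in NOMO-1 shALKBH5, against 323 and 322 TPM in NOMO-1 shNS, and 3.36 and 1.23 TPM in MOLM-13 shALKBH5, against 115 and 116 TPM in MOLM-13 shNS. PCNA, the sliding clamp of replication, had 412 and 522 TPM in NOMO-1 shALKBH5, against 1220 and 1230 TPM in NOMO-1 shNS, and 136 and 96.4 TPM in MOLM-13 shALKBH5, against 278 and 285 TPM in MOLM-13 shNS. The part of proliferation in the fall of the repair genes was not tested.

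TPM columns are shares, and a typical gene moved too. Median-of-ratios scaling shifted the median of all genes by -0.16 in NOMO-1 and by 0.21 in MOLM-13. It changed the split of calls over all genes to 3320 higher and 3699 lower in NOMO-1 (4097 and 2145 as deposited) and to 3483 higher and 3787 lower in MOLM-13 (1513 and 4459 as deposited). With it, 33 repair genes were lower and 2 higher in NOMO-1, and 32 lower and 2 higher in MOLM-13.

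**Figure D1:**
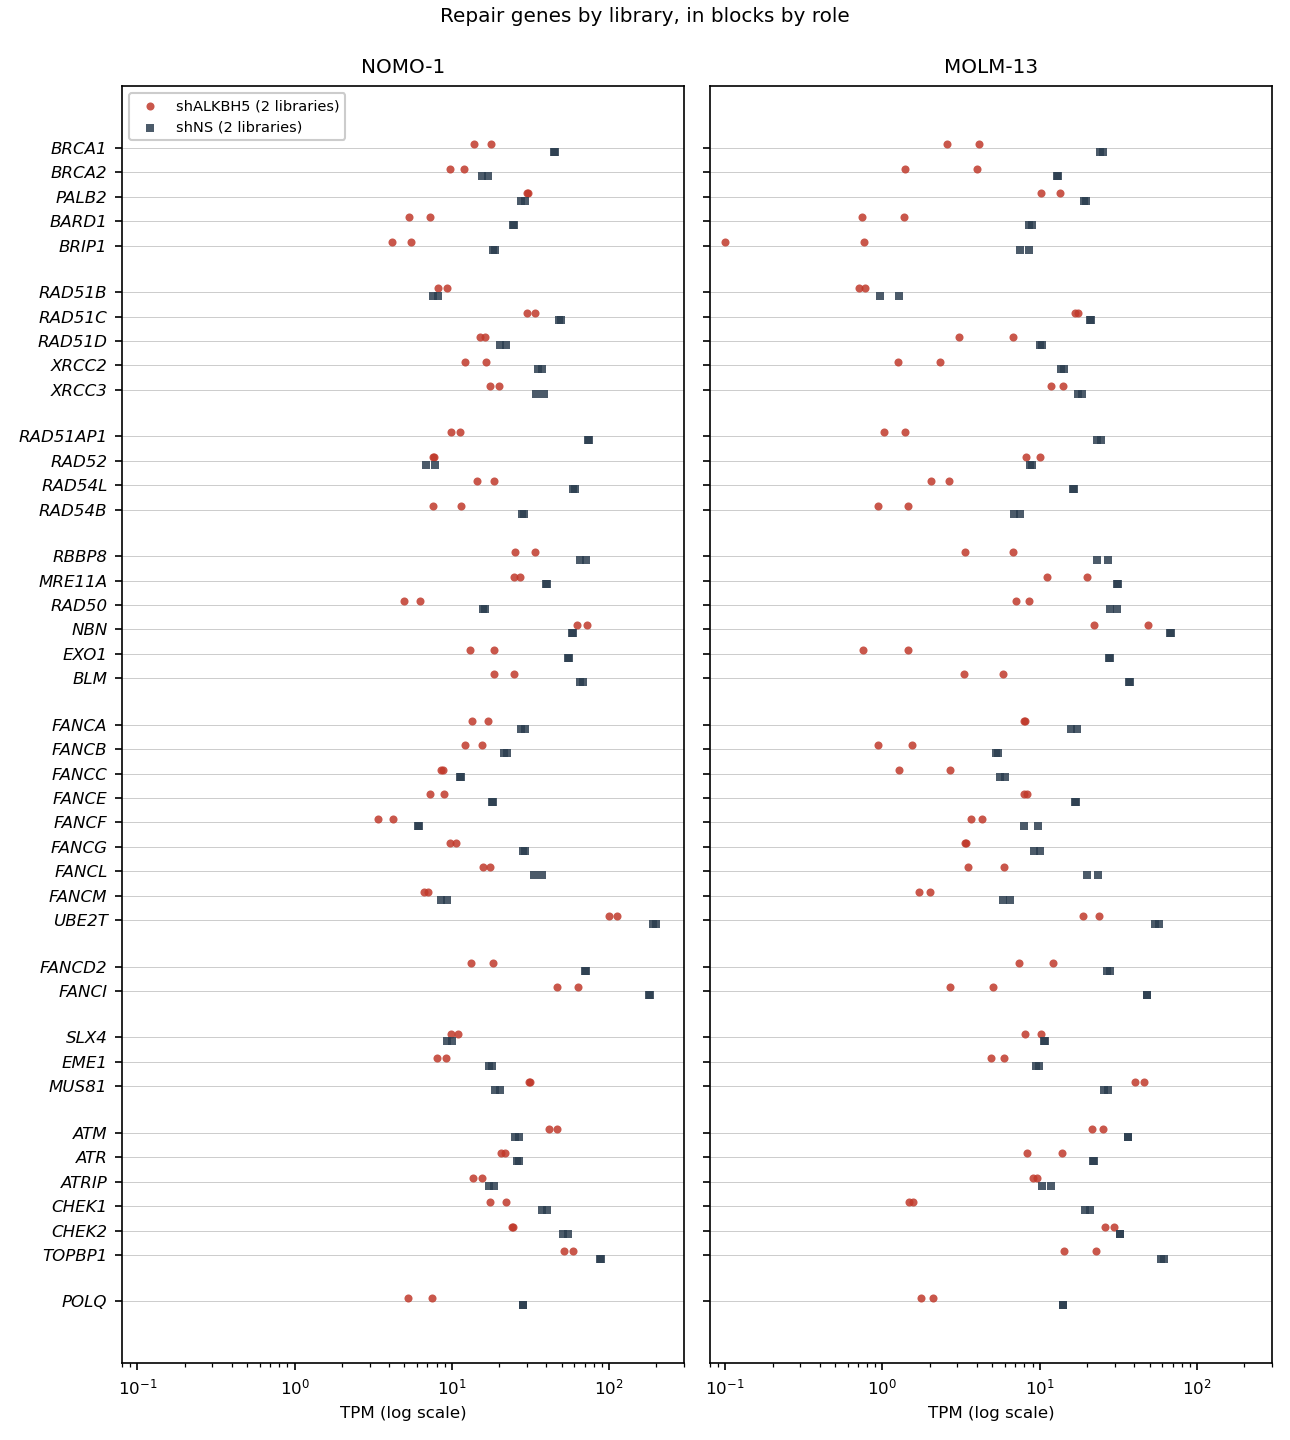
TPM of the 41 repair genes (log axis) in the 2 shALKBH5 libraries (circles) and the 2 shNS libraries (squares) of NOMO-1 (left) and MOLM-13 (right), in blocks by role. The shALKBH5 points lie left of both shNS points for 34 genes in NOMO-1 and 39 in MOLM-13, and MUS81 lies to the right in both lines.

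**Figure D2:**
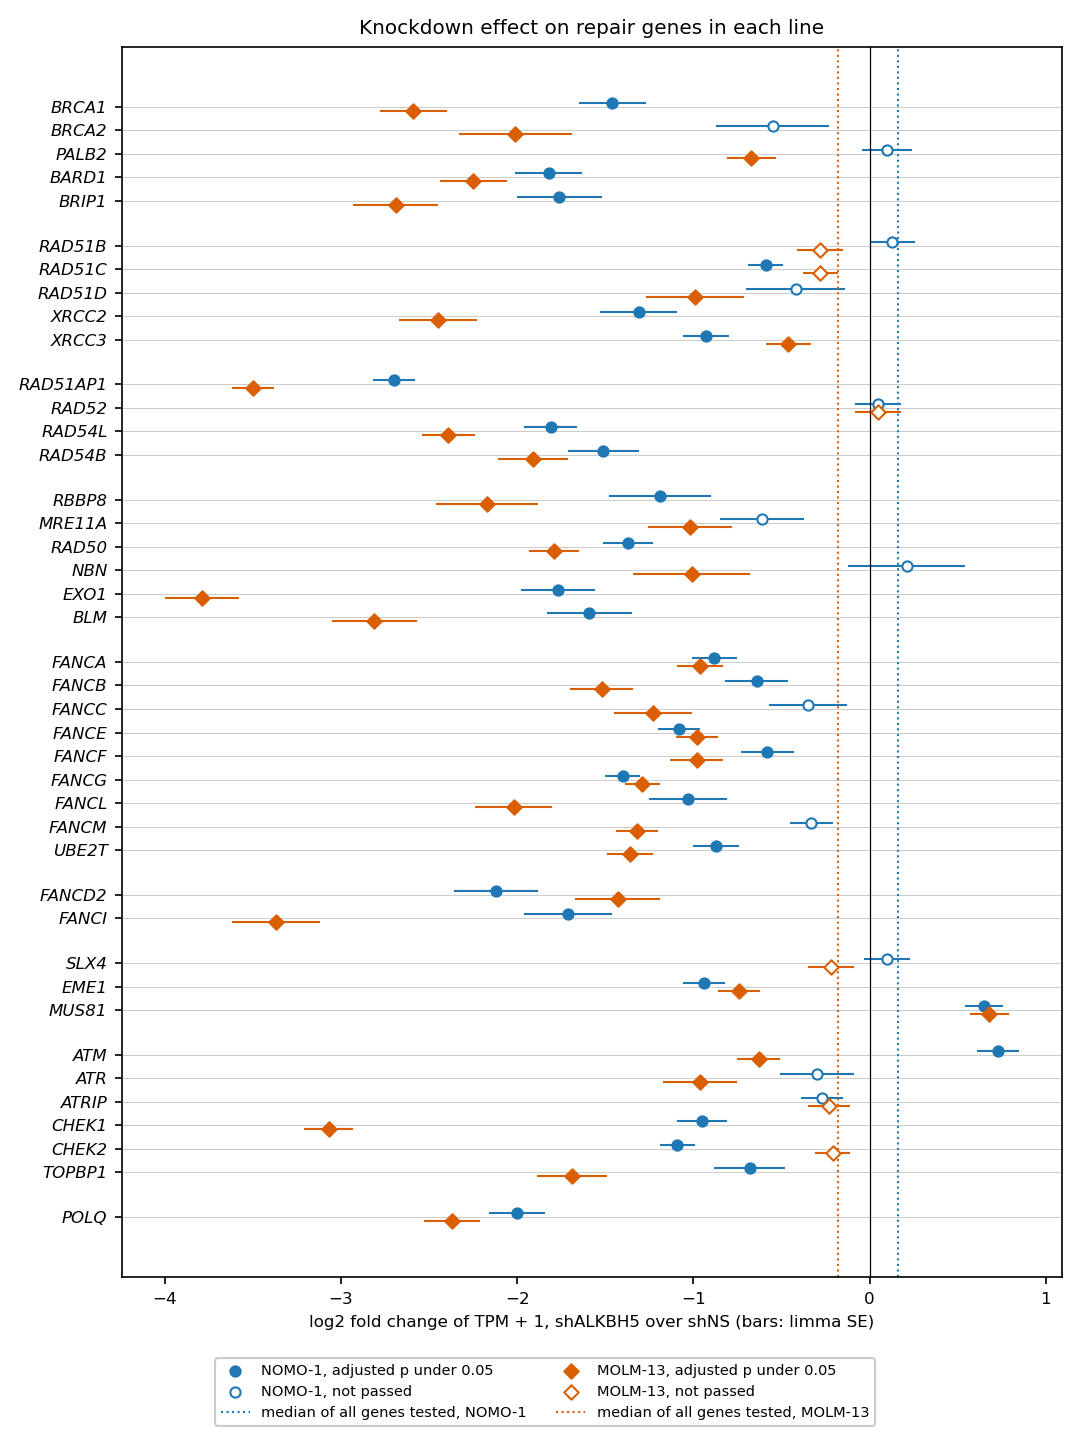
log2 fold change of TPM + 1, shALKBH5 over shNS, with limma's SE, for each repair gene in NOMO-1 (circles) and MOLM-13 (diamonds); filled symbols passed the threshold, and dotted lines mark the medians of all genes tested, 0.16 in NOMO-1 and -0.18 in MOLM-13. Most genes lie left of these medians, EXO1, RAD51AP1, FANCI and CHEK1 the furthest in MOLM-13, with MUS81 right of 0 in both lines and ATM on opposite sides.

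Promoter letters are shown for 5 genes with different outcomes. EXO1 and FANCD2 fell and hold a match to an E2F-type motif, which 5 of the 23 matched genes lower in both lines do. CHEK1 and CHEK2 had effects that differed between the lines, and MUS81 rose. The sequences are from RefSeq (GRCh38.p14), 300 bases each, from 250 bases before the start, 5′ to 3′ on the gene's strand. Where RefSeq lists several windows (3 for CHEK1 and 2 for EXO1), the first is shown. The windows are chr1:241847954-241848253 (plus strand) for EXO1, chr3:10026187-10026486 (plus) for FANCD2, chr11:125625979-125626278 (plus) for CHEK1, chr22:28741771-28742070 (minus) for CHEK2 and chr11:65860183-65860482 (plus) for MUS81. Capitals mark matches on either strand to 3 motifs: E2F-type (TTTCGCGC, TTTGGCGC, TTTCCCGC or TTTGCCGC), CHR (TTTGAA) and CCAAT.
EXO1: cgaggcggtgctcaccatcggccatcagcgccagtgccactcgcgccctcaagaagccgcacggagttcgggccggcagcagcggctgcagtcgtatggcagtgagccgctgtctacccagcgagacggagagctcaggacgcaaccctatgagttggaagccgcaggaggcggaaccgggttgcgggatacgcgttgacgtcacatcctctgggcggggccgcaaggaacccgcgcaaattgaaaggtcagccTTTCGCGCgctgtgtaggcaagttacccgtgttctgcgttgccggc
FANCD2: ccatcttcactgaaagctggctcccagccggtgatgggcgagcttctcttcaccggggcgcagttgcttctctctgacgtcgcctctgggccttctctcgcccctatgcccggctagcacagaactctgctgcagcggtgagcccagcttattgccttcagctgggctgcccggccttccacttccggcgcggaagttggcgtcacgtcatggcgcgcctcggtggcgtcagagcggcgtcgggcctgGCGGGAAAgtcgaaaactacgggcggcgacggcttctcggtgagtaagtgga
CHEK1: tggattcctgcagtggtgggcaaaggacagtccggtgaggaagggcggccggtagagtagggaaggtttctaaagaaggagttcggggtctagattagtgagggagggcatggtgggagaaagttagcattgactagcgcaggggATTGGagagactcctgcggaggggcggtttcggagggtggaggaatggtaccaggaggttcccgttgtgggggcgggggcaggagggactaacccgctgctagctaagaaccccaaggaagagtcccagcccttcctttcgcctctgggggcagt
CHEK2: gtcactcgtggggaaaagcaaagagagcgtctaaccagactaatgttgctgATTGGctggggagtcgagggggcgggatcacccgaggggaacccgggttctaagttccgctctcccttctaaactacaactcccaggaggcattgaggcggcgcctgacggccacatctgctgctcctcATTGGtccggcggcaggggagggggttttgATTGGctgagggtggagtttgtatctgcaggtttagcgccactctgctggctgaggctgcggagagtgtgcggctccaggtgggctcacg
MUS81: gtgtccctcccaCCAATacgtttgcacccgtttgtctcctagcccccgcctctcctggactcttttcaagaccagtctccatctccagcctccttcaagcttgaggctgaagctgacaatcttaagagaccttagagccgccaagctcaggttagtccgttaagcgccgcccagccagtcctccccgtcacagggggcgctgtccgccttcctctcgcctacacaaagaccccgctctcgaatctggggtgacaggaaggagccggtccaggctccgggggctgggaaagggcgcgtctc
In EXO1 the match TTTCGCGC begins 4 bases after the start base, and in FANCD2 the match, TTTCCCGC read on the other strand, begins 2 bases before it (offset -2). CHEK1, CHEK2 and MUS81 show no E2F-type match in these windows but hold CCAAT matches, 3 of them in CHEK2. A further CHEK1 window, which is not shown, also holds 3 CCAAT matches.

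RefSeq windows were found for 38 of the 41 genes (51 windows in all); FANCI, NBN and RAD54B were not matched. An E2F-type match stood in at least 1 window of 6 of 38 genes (15.8%), against 3.99% of 27305 genes with a window and 6.48% of the 10057 of these that were tested. The 6 genes were EXO1, FANCA, FANCC, FANCD2, TOPBP1 and XRCC2. All but FANCC were lower in both lines, so that 5 of 23 matched genes lower in both lines and 1 of the other 15 held a match. CCAAT stood in 44.7% of the repair genes, against 39.7% of all genes and 42.8% of tested genes, and CHR in 13.2%, against 18.2% and 14%. No motif overlapped another within a shown window. These are letter matches, given as a description, and their part in the fall of the repair genes was not tested.

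Among the BRCA mediators, 3 of 5 were lower in NOMO-1 and 5 of 5 in MOLM-13. BRCA1 (chromosome 17, 43044295 to 43170245, GRCh38) had 13.9 and 17.7 TPM in NOMO-1 shALKBH5, against 44.7 and 45.3 TPM in NOMO-1 shNS, and 4.13 and 2.58 TPM in MOLM-13 shALKBH5, against 25.1 and 24.3 TPM in MOLM-13 shNS. On the log2 scale BRCA1 changed by -1.46 in NOMO-1 (SE 0.19, limma adjusted p = 0.002) and by -2.59 in MOLM-13 (SE 0.19, limma adjusted p = 0.00038). BARD1, which pairs with BRCA1 in a ubiquitin ligase, had 5.38 and 7.31 TPM in NOMO-1 shALKBH5, against 24.9 and 24.6 TPM in NOMO-1 shNS and 1.38 and 0.74 TPM in MOLM-13 shALKBH5, against 8.87 and 8.54 TPM in MOLM-13 shNS. In each line the knockdown and control libraries of both genes stood well apart. The helicase BRIP1 was 3.84 and 18.6 times lower in NOMO-1 and MOLM-13, and stood at 0.76 and 0.1 TPM in MOLM-13 shALKBH5. Its NOMO-1 call ended at a pseudocount of 0.1 (limma adjusted p = 0.05).

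PALB2, the bridge between BRCA1 and BRCA2, did not fall with BRCA1 in NOMO-1. It had 30.7 and 30.2 TPM in NOMO-1 shALKBH5, against 27.5 and 29.4 TPM in NOMO-1 shNS (log2 fold change 0.1, 95% interval -0.24 to 0.43, limma adjusted p = 0.62). In MOLM-13 it had 13.5 and 10.2 TPM after knockdown, against 19.1 and 19.6 TPM in the controls, 1.63 times lower (limma adjusted p = 0.01). That call ended with MOLM-13 fitted alone, with array quality weights and without either MOLM-13 shNS library (limma adjusted p up to 0.073). BRCA2, the tumour suppressor that PALB2 brings to breaks, was 4.79 times lower in MOLM-13 (limma adjusted p = 0.0046) and did not pass in NOMO-1 (log2 fold change -0.55, interval -1.33 to 0.24). With NOMO-1 fitted alone, BRCA2 passed as lower. The TPM ratio of BRCA2 over PALB2 was 0.319 and 0.398 in NOMO-1 shALKBH5, against 0.622 and 0.529 in NOMO-1 shNS, and 0.296 and 0.136 in MOLM-13 shALKBH5, against 0.685 and 0.65 in MOLM-13 shNS.

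The group of RAD51B, RAD51C, RAD51D, XRCC2 and XRCC3, related proteins that assist strand exchange, summed to 84.2 and 94.7 TPM in NOMO-1 shALKBH5, against 147 and 155 TPM in NOMO-1 shNS, and to 41.4 and 33.7 TPM in MOLM-13 shALKBH5, against 64.1 and 64.7 TPM in MOLM-13 shNS. In each line 3 of 5 were lower. XRCC2 had 12.1 and 16.4 TPM in NOMO-1 shALKBH5, against 35.3 and 37.7 TPM in NOMO-1 shNS, and 2.32 and 1.25 TPM in MOLM-13 shALKBH5, against 14.2 and 13.7 TPM in MOLM-13 shNS, 2.56 and 7.82 times lower. Its complex partner RAD51D did not pass in NOMO-1 (log2 fold change -0.42) but passed as lower with NOMO-1 fitted alone. RAD51D was 2.06 times lower in MOLM-13, a call that ended in 9 of 17 alternatives, among them the leaving out of any NOMO-1 or MOLM-13 shNS library.

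XRCC3 and RAD51C form a complex, and both fell in NOMO-1. RAD51C had 30.3 and 34 TPM in NOMO-1 shALKBH5, against 49.4 and 48.4 TPM in NOMO-1 shNS (limma adjusted p = 0.0041), and 17.6 and 16.8 TPM in MOLM-13 shALKBH5, against 21.2 and 21 TPM in MOLM-13 shNS. The MOLM-13 groups of RAD51C did not overlap but the gene did not pass there (log2 fold change -0.28, interval -0.51 to -0.05, limma adjusted p = 0.06). XRCC3 had 17.4 and 19.9 TPM in NOMO-1 shALKBH5, against 34.4 and 38.7 TPM in NOMO-1 shNS, and 14 and 11.8 TPM in MOLM-13 shALKBH5, against 17.4 and 18.6 TPM in MOLM-13 shNS. The MOLM-13 fall of XRCC3 (limma adjusted p = 0.031) ended with median-of-ratios scaling, with MOLM-13 fitted alone, with array quality weights and without any 1 of the libraries of NOMO-1 or of MOLM-13 shNS (limma adjusted p up to 0.31). In GENCODE 29, 76.7% of XRCC3's exon bases overlap KLC1 on the opposite strand, and whether counting used strand is not given in the sources used here; KLC1 had 146 and 149 TPM in NOMO-1 shALKBH5, against 91 and 91.1 TPM in NOMO-1 shNS. RAD51B did not pass in either line and stood at 0.71 and 0.77 TPM in MOLM-13 shALKBH5, against 1.28 and 0.96 TPM in MOLM-13 shNS.

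Of the 4 strand exchange factors, 3 fell steeply in both lines and RAD52 did not move past the threshold in either. RAD51AP1 (chromosome 12, 4538798 to 4560048), which promotes strand pairing, had 9.89 and 11.3 TPM in NOMO-1 shALKBH5, against 74.8 and 73.2 TPM in NOMO-1 shNS, and 1.03 and 1.4 TPM in MOLM-13 shALKBH5, against 24.7 and 23.3 TPM in MOLM-13 shNS. It was 6.99 times lower in NOMO-1 (log2 fold change -2.7, SE 0.12, limma adjusted p = 0.00024) and 19.7 times lower in MOLM-13 (-3.5, SE 0.12, limma adjusted p = 0.00011). RAD54L, a motor protein that acts during strand exchange, had 14.5 and 18.5 TPM in NOMO-1 shALKBH5, against 60.5 and 59.2 TPM in NOMO-1 shNS, and 2.64 and 2.05 TPM in MOLM-13 shALKBH5, against 16.6 and 16.3 TPM in MOLM-13 shNS. Its relative RAD54B was 2.98 and 6 times lower; 59.1% of its exon bases are shared with FSBP on the same strand, so reads of these 2 genes may be split between them. RAD52, a strand-annealing protein, had 7.72 and 7.57 TPM in NOMO-1 shALKBH5, against 6.87 and 7.8 TPM in NOMO-1 shNS, and 10.1 and 8.23 TPM in MOLM-13 shALKBH5, against 8.69 and 8.87 TPM in MOLM-13 shNS, with overlapping groups in both lines. The 95% interval of its log2 fold change was -0.25 to 0.36 in NOMO-1 and -0.26 to 0.35 in MOLM-13.

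Among end resection factors and the helicase BLM, 4 of 6 were lower in NOMO-1 and 6 of 6 in MOLM-13. EXO1 (chromosome 1, 241847967 to 241895148), the exonuclease that lengthens the single-stranded tails, had 13 and 18.6 TPM in NOMO-1 shALKBH5, against 56 and 55.2 TPM in NOMO-1 shNS, and 1.46 and 0.75 TPM in MOLM-13 shALKBH5, against 28 and 27.4 TPM in MOLM-13 shNS. That is 3.52 times lower in NOMO-1 (limma adjusted p = 0.0014) and 25.1 times lower in MOLM-13 (limma adjusted p = 0.00021). BLM, which works with EXO1 and later dissolves joined strands, had 18.5 and 24.9 TPM in NOMO-1 shALKBH5, against 68.2 and 65.3 TPM in NOMO-1 shNS, and 5.87 and 3.32 TPM in MOLM-13 shALKBH5, against 37.5 and 36.8 TPM in MOLM-13 shNS. RBBP8, which encodes CtIP and starts resection, was 2.31 and 4.98 times lower; its NOMO-1 call (limma adjusted p = 0.017) ended without shNS replicate 1, shNS replicate 3 or shALKBH5 replicate 2 of NOMO-1 (limma adjusted p up to 0.11).

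The 3 subunits of the break-sensing MRN complex differed. RAD50 had 4.99 and 6.26 TPM in NOMO-1 shALKBH5, against 15.9 and 16.2 TPM in NOMO-1 shNS, and 8.59 and 7.05 TPM in MOLM-13 shALKBH5, against 30.9 and 27.8 TPM in MOLM-13 shNS. It was 2.86 and 3.76 times lower (limma adjusted p = 0.00096 in NOMO-1 and 0.00048 in MOLM-13). A second GENCODE 29 gene model on the same strand shares 79.7% of RAD50's exon bases. The nuclease subunit MRE11A did not pass in NOMO-1 (log2 fold change -0.61, limma adjusted p = 0.084) but passed as lower with NOMO-1 fitted alone. MRE11A was 2.02 times lower in MOLM-13, a call that ended with MOLM-13 fitted alone and without either MOLM-13 shNS library. NBN, the subunit that recruits ATM, had 62.6 and 72.8 TPM in NOMO-1 shALKBH5, against 58.6 and 58 TPM in NOMO-1 shNS, and 49.1 and 22.3 TPM in MOLM-13 shALKBH5, against 68.4 and 67.5 TPM in MOLM-13 shNS. The NBN libraries of MOLM-13 shALKBH5 lay more than 2-fold apart, and the call there (limma adjusted p = 0.048) ended in 10 of 17 alternatives (up to 0.17), including the leaving out of each NOMO-1 and each MOLM-13 shNS library. In NOMO-1, RAD50 over NBN was 0.0797 and 0.086 in shALKBH5, against 0.271 and 0.28 in shNS. In MOLM-13 it was 0.175 and 0.316 in shALKBH5, against 0.452 and 0.412 in shNS.

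All 9 genes of the Fanconi core, its anchor and its ubiquitin-conjugating enzyme were below 0 on the log2 scale in both lines, and 7 passed in NOMO-1 and 9 in MOLM-13. FANCG, a core scaffold subunit, had 9.77 and 10.7 TPM in NOMO-1 shALKBH5, against 28.3 and 29.1 TPM in NOMO-1 shNS, and 3.33 and 3.4 TPM in MOLM-13 shALKBH5, against 9.26 and 10.1 TPM in MOLM-13 shNS. Its log2 fold changes, -1.4 in NOMO-1 and -1.29 in MOLM-13, differed by -0.11 (interval -0.46 to 0.24). FANCE, which links the core to FANCD2, had 7.28 and 8.88 TPM in NOMO-1 shALKBH5, against 18.2 and 17.9 TPM in NOMO-1 shNS, and 7.97 and 8.31 TPM in MOLM-13 shALKBH5, against 17.1 and 16.8 TPM in MOLM-13 shNS. Its log2 fold changes differed by -0.1 (interval -0.49 to 0.29). FANCA was 1.88 and 2.07 times lower, with a difference of 0.09 (interval -0.36 to 0.54). UBE2T, the conjugating enzyme and the highest of the 41 genes in NOMO-1 shNS at a mean of 195 TPM, was 1.83 and 2.62 times lower. The FANCA call in MOLM-13 ended with array quality weights (limma adjusted p = 0.074).

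FANCB, a core subunit, had 12.1 and 15.6 TPM in NOMO-1 shALKBH5, against 21.4 and 22.6 TPM in NOMO-1 shNS, and 1.54 and 0.93 TPM in MOLM-13 shALKBH5, against 5.25 and 5.45 TPM in MOLM-13 shNS. FANCL, the ubiquitin ligase of the core, had 15.9 and 17.6 TPM in NOMO-1 shALKBH5, against 33.1 and 37.4 TPM in NOMO-1 shNS, and 5.96 and 3.49 TPM in MOLM-13 shALKBH5, against 20 and 23.6 TPM in MOLM-13 shNS. FANCM, the DNA translocase that anchors the core, had 6.67 and 7.09 TPM in NOMO-1 shALKBH5, against 9.29 and 8.48 TPM in NOMO-1 shNS, and 2.02 and 1.71 TPM in MOLM-13 shALKBH5, against 6.48 and 5.82 TPM in MOLM-13 shNS. The groups of these 3 genes did not overlap in either line, though FANCM did not pass in NOMO-1 (limma adjusted p = 0.064). The NOMO-1 call of FANCB (limma adjusted p = 0.028) ended at a pseudocount of 0.1, with no filter, and without NOMO-1 shNS replicate 1, NOMO-1 shNS replicate 3, NOMO-1 shALKBH5 replicate 2 or either MOLM-13 shNS library (up to 0.16), and that of FANCL (limma adjusted p = 0.011) without NOMO-1 shNS replicate 3 or shALKBH5 replicate 2 (up to 0.073). FANCC did not pass in NOMO-1 (log2 fold change -0.35) and was 2.92 times lower in MOLM-13. With NOMO-1 fitted alone, FANCC and FANCM passed as lower. The difference of the FANCC effects between the lines did not pass (limma adjusted p = 0.072). FANCF was 1.62 and 2.23 times lower; its NOMO-1 call (limma adjusted p = 0.021) ended without shNS replicate 1, shNS replicate 3 or shALKBH5 replicate 2 (up to 0.12), and its MOLM-13 call ended with array quality weights (limma adjusted p = 0.11).

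FANCD2 and FANCI, the pair that the core ubiquitinates, both fell in both lines but in different proportion. FANCI (chromosome 15, 89243949 to 89317261) had 46.7 and 63.8 TPM in NOMO-1 shALKBH5, against 179 and 182 TPM in NOMO-1 shNS, and 5.04 and 2.69 TPM in MOLM-13 shALKBH5, against 47.9 and 47.8 TPM in MOLM-13 shNS. It was 3.27 times lower in NOMO-1 (limma adjusted p = 0.0028) and 12.4 times lower in MOLM-13 (limma adjusted p = 0.00037). FANCD2 (chromosome 3, 10026414 to 10101930) had 13.2 and 18.4 TPM in NOMO-1 shALKBH5, against 70 and 71.8 TPM in NOMO-1 shNS, and 12.2 and 7.35 TPM in MOLM-13 shALKBH5, against 26.9 and 27.8 TPM in MOLM-13 shNS, which is 4.49 and 2.8 times lower. The TPM ratio of FANCI over FANCD2 was therefore higher in NOMO-1 shALKBH5, at 3.55 and 3.46, against 2.56 and 2.53 in NOMO-1 shNS, and lower in MOLM-13 shALKBH5, at 0.413 and 0.366, against 1.78 and 1.72 in MOLM-13 shNS. FANCI stood above FANCD2 in every library but those of MOLM-13 shALKBH5. GENCODE 29 names 1 pseudogene of FANCD2, with which reads may be shared.

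Of the 3 crosslink and junction nuclease genes, 1 was higher and 1 lower in each line. MUS81 (chromosome 11, 65857126 to 65867653), the catalytic subunit of a nuclease that cuts branched DNA, had 31.2 and 31.4 TPM in NOMO-1 shALKBH5, against 18.9 and 20.4 TPM in NOMO-1 shNS, and 46 and 40.2 TPM in MOLM-13 shALKBH5, against 25.5 and 27.3 TPM in MOLM-13 shNS. It rose by 0.65 (SE 0.11, limma adjusted p = 0.0041) and 0.68 (SE 0.11, limma adjusted p = 0.0039) on the log2 scale in NOMO-1 and MOLM-13. Its partner EME1, which the nuclease needs for activity, had 8.07 and 9.24 TPM in NOMO-1 shALKBH5, against 17.2 and 17.9 TPM in NOMO-1 shNS, and 4.9 and 5.91 TPM in MOLM-13 shALKBH5, against 9.44 and 9.93 TPM in MOLM-13 shNS. EME1 over MUS81 was 0.258 and 0.294 in NOMO-1 shALKBH5, against 0.907 and 0.882 in NOMO-1 shNS, and 0.107 and 0.147 in MOLM-13 shALKBH5, against 0.37 and 0.363 in MOLM-13 shNS. The MUS81 rise in MOLM-13 ended when MOLM-13 was fitted alone and with array quality weights (limma adjusted p up to 0.052); the EME1 fall in MOLM-13 ended with those weights and with median-of-ratios scaling (up to 0.073). MUS81 shares 13.9% of its exon bases with CFL1 on the opposite strand, and CFL1 had 636 and 649 TPM in NOMO-1 shALKBH5, against 954 and 959 TPM in NOMO-1 shNS and 1060 and 856 TPM in MOLM-13 shALKBH5, against 931 and 993 TPM in MOLM-13 shNS. EME1 shares 16.4% of its exon bases with LRRC59 on the opposite strand. LRRC59 had 327 and 356 TPM in NOMO-1 shALKBH5, against 212 and 213 TPM in NOMO-1 shNS. In MOLM-13 LRRC59 had 126 and 83.8 TPM in shALKBH5, against 130 and 127 TPM in shNS. Opposite-strand overlaps also cover 25.1% of the exon bases of RAD54L (LRRC41), 23.6% of FANCA (ZNF276) and 18.7% of FANCL (VRK2). SLX4, the scaffold for these nucleases, did not pass in either line, with intervals of -0.22 to 0.43 in NOMO-1 and -0.54 to 0.1 in MOLM-13.

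Of the 6 checkpoint kinases and partners, 3 were lower and 1 higher in NOMO-1, and 4 were lower and 0 higher in MOLM-13. CHEK1 (chromosome 11, 125625136 to 125676255), the effector of ATR, had 17.5 and 22.2 TPM in NOMO-1 shALKBH5, against 37.6 and 40.6 TPM in NOMO-1 shNS, and 1.56 and 1.47 TPM in MOLM-13 shALKBH5, against 21 and 19.3 TPM in MOLM-13 shNS. It was 1.97 times lower in NOMO-1 (log2 fold change -0.95, SE 0.14, limma adjusted p = 0.0025) and 13.3 times lower in MOLM-13 (-3.07, SE 0.14, limma adjusted p = 0.00014). CHEK2 (chromosome 22, 28687743 to 28742422), the effector of ATM, had 24.2 and 24.6 TPM in NOMO-1 shALKBH5, against 50.8 and 55.1 TPM in NOMO-1 shNS, and 29.7 and 26.2 TPM in MOLM-13 shALKBH5, against 32.2 and 32.6 TPM in MOLM-13 shNS. CHEK2 was 2.17 times lower in NOMO-1 (limma adjusted p = 0.00071) and did not pass in MOLM-13 (log2 fold change -0.21, interval -0.45 to 0.04, limma adjusted p = 0.15). With median-of-ratios scaling its MOLM-13 log2 fold change was 0.08, which did not pass either (limma adjusted p = 0.48). CHEK1 over CHEK2 was 0.0525 and 0.0561 in MOLM-13 shALKBH5, against 0.652 and 0.592 in MOLM-13 shNS, whereas in NOMO-1 it was 0.722 and 0.904 in shALKBH5, against 0.741 and 0.736 in shNS. GENCODE 29 names 4 pseudogenes of CHEK2, with which reads may be shared.

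ATM (chromosome 11, 108222484 to 108369102), the kinase that answers to double-strand breaks, had 41.3 and 46.7 TPM in NOMO-1 shALKBH5, against 26.9 and 25.3 TPM in NOMO-1 shNS. It had 25.4 and 21.4 TPM in MOLM-13 shALKBH5, against 36.6 and 36.5 TPM in MOLM-13 shNS. The groups did not overlap in either line, and ATM was higher in NOMO-1 (log2 fold change 0.73, SE 0.12, limma adjusted p = 0.0041) and lower in MOLM-13 (-0.63, SE 0.12, limma adjusted p = 0.0081). The fall in MOLM-13 ended with the line fitted alone, with array quality weights and without either MOLM-13 shNS library (limma adjusted p up to 0.079). ATR, the kinase that answers to single-stranded DNA, was 1.97 times lower in MOLM-13 (limma adjusted p = 0.014) and did not pass in NOMO-1 (log2 fold change -0.3). With NOMO-1 fitted alone, ATR passed as lower. The ATR call in MOLM-13 ended with the line fitted alone and without either MOLM-13 shNS library (up to 0.075). TOPBP1, which activates ATR, had 51.4 and 58.7 TPM in NOMO-1 shALKBH5, against 88.2 and 89 TPM in NOMO-1 shNS, and 22.7 and 14.3 TPM in MOLM-13 shALKBH5, against 62.1 and 58.9 TPM in MOLM-13 shNS. Its NOMO-1 call (limma adjusted p = 0.037) ended with no filter and without any 1 of the libraries of NOMO-1 or of MOLM-13 shNS (up to 0.18). ATRIP, the partner of ATR, did not pass in either line; 27.9% of its exon bases are shared with TREX1 on the same strand.

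POLQ (chromosome 3, 121431427 to 121546641) encodes the polymerase of a break repair route that competes with homologous recombination. It had 5.3 and 7.47 TPM in NOMO-1 shALKBH5, against 28.3 and 28.2 TPM in NOMO-1 shNS, and 2.1 and 1.75 TPM in MOLM-13 shALKBH5, against 14 and 14.1 TPM in MOLM-13 shNS. It was 4.43 times lower in NOMO-1 (limma adjusted p = 0.00046) and 7.3 times lower in MOLM-13 (limma adjusted p = 3e-04). Its log2 fold changes differed by 0.36 between the lines (interval -0.18 to 0.9).

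**Figure D3:**
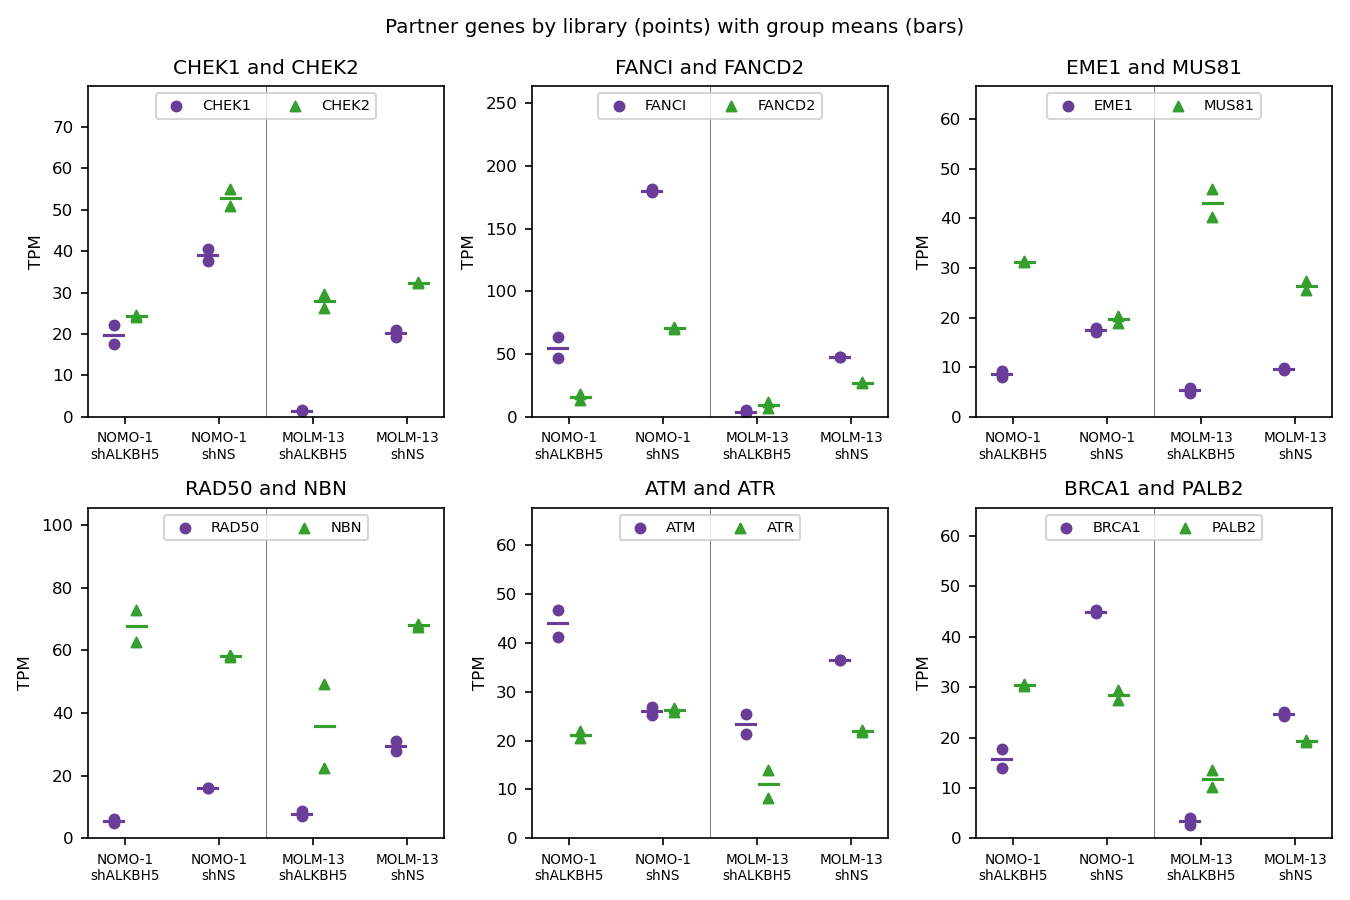
TPM of 6 pairs of partner genes in each library (points) with group means (bars), shALKBH5 left of shNS within each line. CHEK1 falls to 1.56 and 1.47 TPM in MOLM-13 shALKBH5 while CHEK2 is at 29.7 and 26.2 TPM, and MUS81 rises in both lines while EME1 falls.

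The difference of the knockdown effects, NOMO-1 minus MOLM-13, was tested directly. It was above 0 and past the threshold for 13 of the 41 genes (31.7%) and below 0 for 1, CHEK2, where 29.7% of all genes were above and 4.9% below. The share of repair genes above 0 was thus near that of all genes, and the medians were 0.57 and 0.42. With median-of-ratios scaling, which shifted the median of all genes by -0.43 and split the calls over all genes into 2635 above and 2462 below (4245 and 701 as deposited), 9 repair genes were above and 6 below. The largest differences were those of CHEK1 (2.12, SE 0.19, limma adjusted p = 0.0022) and EXO1 (2.02, SE 0.3, limma adjusted p = 0.0063), both with the larger fall in MOLM-13. ATM differed by 1.36 (limma adjusted p = 0.004), CHEK2 by -0.88 (0.008) and FANCM by 0.99 (0.0083). These 5 genes passed in all 16 alternatives run. The other 9 were FANCI (1.66), BLM (1.22), XRCC2 (1.14), BRCA1 (1.12), TOPBP1 (1.01), FANCL (1), FANCB (0.88), RAD51AP1 (0.8) and PALB2 (0.77), and each lost its call in at least 5 alternatives. The number of genes above 0 was 4 without NOMO-1 shNS replicate 1, NOMO-1 shNS replicate 3, NOMO-1 shALKBH5 replicate 3, MOLM-13 shNS replicate 1 or MOLM-13 shNS replicate 3, 6 without NOMO-1 shALKBH5 replicate 2, 18 without MOLM-13 shALKBH5 replicate 3 and 26 without MOLM-13 shALKBH5 replicate 1.

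The control libraries were compared to see how the lines differed without the ALKBH5 hairpin. Of the 41 genes, 29 were higher in NOMO-1 shNS than in MOLM-13 shNS, 4 were lower and 8 did not pass, where 40.6% of all genes were higher and 19.2% lower. The median log2 difference was 0.84 for the repair genes and 0.29 for all genes. With median-of-ratios scaling (4849 higher and 4555 lower over all genes, against 5812 and 2744 as deposited; shift of the median -0.27) 27 repair genes were higher and 6 lower. RAD51B had the largest ratio, 7.56 and 8.16 TPM in NOMO-1 shNS, against 1.28 and 0.96 TPM in MOLM-13 shNS. FANCB was 4.11, RAD54B 3.95, FANCI 3.77 and RAD54L 3.64 times higher in NOMO-1. The 4 lower genes were RAD50 (1.83 times lower in NOMO-1, limma adjusted p = 0.0029), FANCF (1.43), ATM (1.4) and MUS81 (1.35), and 1 of these passed without NOMO-1 shNS replicate 1, NOMO-1 shNS replicate 3 or MOLM-13 shNS replicate 3, and 2 without MOLM-13 shNS replicate 1. Proliferation markers summed to 4000 and 4060 TPM in NOMO-1 shNS, against 1210 and 1230 TPM in MOLM-13 shNS.

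Lists of further repair genes, described by their counts, set the 41 genes beside the rest of DNA repair. Of 31 other recombination genes, 12 were lower and 6 higher in NOMO-1 and 20 lower and 3 higher in MOLM-13. RMI2, a partner of BLM, changed by -2.55 in NOMO-1 and -2.33 in MOLM-13 on the log2 scale. Of 15 Fanconi and crosslink partners, 7 were lower in NOMO-1 and 8 in MOLM-13, with none higher in either; USP1, which removes the ubiquitin from FANCD2, changed by -1.13 in NOMO-1 and -2.88 in MOLM-13. Of 18 checkpoint and break-signalling partners, 11 were lower and 2 higher in NOMO-1 and 15 lower and 0 higher in MOLM-13. CDC25A, the phosphatase that CHEK1 targets, changed by -0.32 in NOMO-1 and -2.85 in MOLM-13 on the log2 scale, and the mitotic inhibitor kinase WEE1 by -1.59 in NOMO-1 and -2.94 in MOLM-13.

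The other repair routes were counted in the same way, beside 15% lower and 28.6% higher over all genes in NOMO-1 and 31.2% lower and 10.6% higher in MOLM-13. Of 11 genes of non-homologous end joining, 4 (36.4%) were lower in each line, 1 (9.09%) was higher in NOMO-1 and 0 in MOLM-13. The kinase PRKDC changed by -1.72 in NOMO-1 and -1.91 in MOLM-13 on the log2 scale, while the ligase LIG4 was higher in NOMO-1 (1.05) and did not pass in MOLM-13 (-0.23). Of 18 nucleotide excision genes, 1 (5.56%) was lower and 5 (27.8%) higher in NOMO-1, and 7 (38.9%) were lower and 0 higher in MOLM-13. The shares higher in NOMO-1 and lower in MOLM-13 were thus near those of all genes, as was the share of end joining genes lower in MOLM-13. The damage sensor DDB2 changed by -1.68 in NOMO-1 and did not pass in MOLM-13 (-0.09). Of 19 base excision genes, 8 (42.1%) were lower and 4 (21.1%) higher in NOMO-1 and 11 (57.9%) lower and 1 (5.26%) higher in MOLM-13. The glycosylase UNG changed by -0.84 in NOMO-1 and -3.14 in MOLM-13. Of 6 mismatch repair genes tested, 2 (33.3%) were lower in NOMO-1 and 6 (100%) in MOLM-13.

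**Figure D4:**
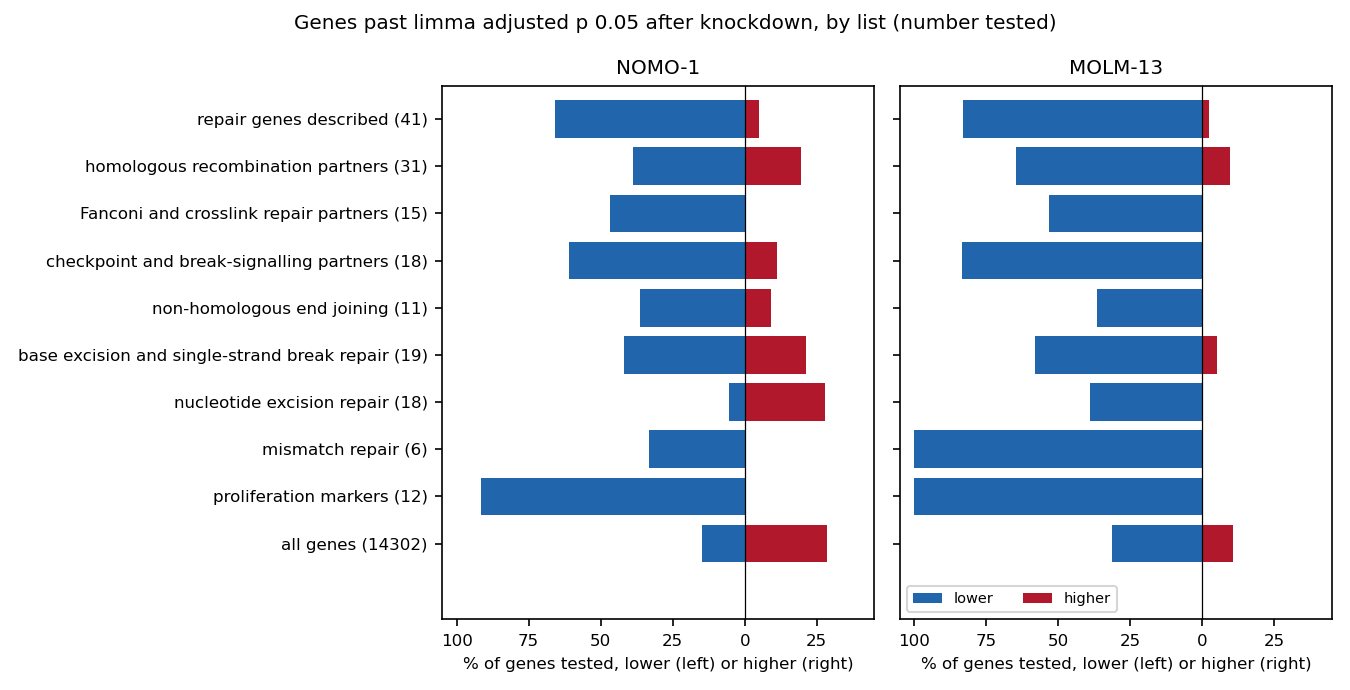
Percent of the genes tested in each list that were lower (left of 0) or higher (right of 0) after knockdown, limma adjusted p under 0.05, in NOMO-1 and MOLM-13; the number tested is in brackets and the bottom bar is all 14302 genes. The 41 repair genes (65.9% lower in NOMO-1 and 82.9% in MOLM-13) lie between the proliferation markers (91.7% and 100%) and all genes (15% and 31.2%).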

How the data were processed

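The authors deposited 1 table of TPM for 8 libraries, with no counts. STAR, RSEM and GRCh38 are named per the submitters' processing notes; for tool versions, annotation and strand, these were not given in the sources used here. Depth cannot be recovered from TPM, and no counting interval is given. Table columns marked E were assigned to shALKBH5 by line and replicate number. Of 26830 symbols, the 14302 that reached 1 TPM in 2 or more libraries were tested. limma 3.58.1 (R 4.3.3) was fitted to log2(TPM + 1) with a mean for each of 4 groups (4 residual and 2.29 prior degrees of freedom), an intensity trend, two-sided tests and Benjamini-Hochberg adjustment over all genes tested (threshold 0.05); the pseudocount understates changes of low genes. The spread is pooled over groups. The test was checked on simulated data that gave each gene the same spread in all groups and placed changes in NOMO-1 shALKBH5 only. The check therefore does not cover the wider spread of MOLM-13 shALKBH5. 4 comparisons were made; count tests do not apply to TPM. The alternatives changed pseudocount, filter, scaling, weights, trend, fit, replicate block and the libraries kept. Fold in TPM is the ratio of group means; ratios of partner genes are descriptions. The members and lists were chosen with earlier results of these data known. The named-gene rule gives every library's value for the 2 members of each role group with the smallest p per line, those higher, those differing between lines and POLQ; RAD52, RAD51B, NBN, LYZ, MPO and CD14, also given by library or range, were chosen for this after their values were seen. Positions and overlaps are from GENCODE 29 (GRCh38; 41 matched), promoters from RefSeq GRCh38.p14. Values of a few genes are not reported here.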

Additional observations from a re-analysis of the deposited data

Results flagged for a closer look

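The knockdown effect differed between NOMO-1 and MOLM-13 in limma's test of the difference itself for 14 of the 41 repair genes. On the log2 scale, NOMO-1 minus MOLM-13, the differences were 2.12 for CHEK1, 2.02 for EXO1, 1.66 for FANCI, 1.36 for ATM, 1.22 for BLM, 1.14 for XRCC2 and 1.12 for BRCA1. They were 1.01 for TOPBP1, 1 for FANCL, 0.99 for FANCM, 0.88 for FANCB, 0.8 for RAD51AP1 and 0.77 for PALB2. CHEK2 differed by -0.88. ATM was higher in NOMO-1 and lower in MOLM-13, with no overlap of groups in either line. Of all genes tested, 29.7% differed upwards and 4.9% downwards.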

How the results depend on the processing

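With 2 libraries a group and TPM of unknown depth, changes of low genes such as RAD51B in MOLM-13 are poorly resolved. A fit without 1 library assumes that the lone library varies like the other groups. Of the members called, 23 of 29 in NOMO-1, 24 of 35 in MOLM-13 and 5 of 14 for the difference passed in every alternative run; the cause of the losses was not tested.

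A pseudocount of 0.1 gave medians of the repair genes of -1.52 in MOLM-13 and 0.81 for the difference, and a pseudocount of 5 gave -0.86 and 0.28, with 2 genes lower in the difference and RAD51AP1 reversed (-0.12). Without a filter 8 repair genes were above 0 in the difference. Median-of-ratios scaling gave 3699 genes lower in NOMO-1, 3483 higher in MOLM-13, 2462 lower and 2635 higher in the difference and 4555 lower between controls. The medians of the repair genes became -1.13 in NOMO-1, -1.08 in MOLM-13, 0.16 for the difference and 0.54 between controls, with 2 repair genes higher in MOLM-13 and 6 lower in the difference. It reversed PALB2 (-0.11), RAD51B (-0.06), RAD52 (-0.13), NBN (-0.01) and SLX4 (-0.1) in NOMO-1 and SLX4 (0.05), ATRIP (0.04) and CHEK2 (0.08) in MOLM-13, none of which had passed. With each line fitted alone 3401 genes were lower in NOMO-1, and 2061 were lower and 532 higher in MOLM-13. In those fits 34 repair genes were lower in NOMO-1, and 27 were lower and 0 higher in MOLM-13 (MUS81 lost). Array quality weights gave 3499 lower and 6213 higher in NOMO-1, 2436 lower and 382 higher in MOLM-13, and 347 lower in the difference. With these weights 34 repair genes were lower in NOMO-1, and 26 were lower and 0 higher in MOLM-13. Both settings thus reversed the order of the lines in the main fit, 27 in NOMO-1 and 34 in MOLM-13. Without both MOLM-13 shALKBH5 libraries, an alternative chosen after seeing the data, NOMO-1 had 3529 lower and 6242 higher genes and 34 repair genes lower.

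Leaving out 1 library at a time, the genes lower ranged over 1137 to 3526 in NOMO-1 and 2090 to 7435 in MOLM-13, and those higher over 2106 to 6232 and 541 to 3285. The difference had 194 to 1945 lower and 1392 to 8433 higher. Repair genes lower ranged over 22 to 34 in NOMO-1 and 27 to 37 in MOLM-13. In the difference 1 to 4 repair genes were lower and 4 to 26 higher, and between controls 1 to 6 were lower. The MOLM-13 median of the repair genes ranged over -1.56 to -1.19. RAD52 reversed without NOMO-1 shNS replicate 1 (-0.03 in NOMO-1) and without MOLM-13 shALKBH5 replicate 1 (-0.08 in MOLM-13); leaving out a library of the same line gave it up to 0.14 in NOMO-1 and 0.18 in MOLM-13.

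The MOLM-13 groups share replicate numbers 1 and 3. Deviations of same-numbered libraries correlated at r = 0.0606 over 14302 genes. This rests on 1 difference in each group, so it cannot tell whether same-numbered libraries were handled together. The labels do not state it. With a replicate block in MOLM-13, 34 repair genes were lower and 1 higher there, and 17 were above 0 in the difference. The NOMO-1 groups share 1 number. With the promoter window cut to 150 bases before the start, E2F-type matches stood in 13.2% of the matched repair genes (4.61% of tested and 2.85% of all genes), CHR in 5.26% (8.41% and 11.5%) and CCAAT in 39.5% (34.6% and 31.1%).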
